A study of Mus musculus with 3 samples.

Results

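The genes described here are 9 genes that mark or specify GABAergic interneurons: Pvalb, Lhx6, Nkx2-1, Sox6, Satb1, Nos1, Calb2, Vip and Maf. A binding site of the thyroid hormone receptor TRα1 (TRBS) was given to a gene when its summit lay in the gene body or within 30 kb of the gene's 5′ end. They are among the 21938 protein-coding genes of the annotation, and they held 6 of the 23988 TRBS of the series. At least 1 TRBS was found at 4 of the 9 genes. These were Nos1 with 3 sites and Pvalb, Satb1 and Sox6 with 1 site each. Lhx6, Nkx2-1, Calb2, Vip and Maf had none.

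The sites come from ChIP-seq of adult male C57BL/6J striatum. The mice carried a GS-tagged TRα1 that was expressed in GABAergic neurons, were euthyroid and received no treatment, and the labels give their age as 8 without a unit. There were 2 ChIP libraries and 1 input library, all from tagged animals, and 1 peak list. The labels do not name the promoter that restricts the tagged receptor to GABAergic neurons. The list has no values for single libraries, so no spread between replicates, no depth per library and no p-value between groups can be given. This series holds no RNA measurement, so the labelled cell type was not checked by its markers here. Most GABAergic neurons of the striatum are projection neurons and interneurons are a minority. Which of them carried the receptor at a given site cannot be told apart in chromatin from the whole tissue.

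TRα1 is a nuclear receptor for the hormone T3 and binds DNA mainly as a heterodimer with RXR. Its best known element is DR4, in which 2 copies of AGGTCA, each called a half-site, follow each other in the same direction 4 bases apart. Interneurons that reach the striatum from the medial ganglionic eminence are specified by the homeodomain factor Nkx2-1. Nkx2-1 switches on the LIM-homeodomain factor Lhx6, and the HMG-box factor Sox6, the chromatin organiser Satb1 and the leucine zipper factor Maf act during their later maturation. Adult classes are told apart by what they make: the calcium buffers parvalbumin (Pvalb) and calretinin (Calb2), the peptide VIP, or the neuronal nitric oxide synthase Nos1. Parvalbumin-containing interneurons are a cell type long known to depend on thyroid hormone during brain development.

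The sequence around each summit is shown first, because it shows which of the 6 sites hold a DR4. Each line is the 201 bases centred on the summit, from GRCm38, plus strand, 5′ to 3′. Capitals mark DR4 matches in the middle Nos1 site and in Pvalb, matches to the AP-1 motif TGANTCA in the last Nos1 site and in Satb1, and a repeat of GA in Sox6. The first Nos1 site has no capitals.
Nos1, first site, chr5:117783918-117784118: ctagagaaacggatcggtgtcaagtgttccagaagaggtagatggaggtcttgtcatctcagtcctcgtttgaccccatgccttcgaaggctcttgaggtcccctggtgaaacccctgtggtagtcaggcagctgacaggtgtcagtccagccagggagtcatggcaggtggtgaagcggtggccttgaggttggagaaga
Nos1, middle site, chr5:117825138-117825338: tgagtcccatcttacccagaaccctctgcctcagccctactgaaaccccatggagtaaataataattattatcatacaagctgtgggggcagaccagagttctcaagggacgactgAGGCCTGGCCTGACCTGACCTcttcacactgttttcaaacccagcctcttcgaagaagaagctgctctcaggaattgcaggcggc
Nos1, last site, chr5:117865129-117865329: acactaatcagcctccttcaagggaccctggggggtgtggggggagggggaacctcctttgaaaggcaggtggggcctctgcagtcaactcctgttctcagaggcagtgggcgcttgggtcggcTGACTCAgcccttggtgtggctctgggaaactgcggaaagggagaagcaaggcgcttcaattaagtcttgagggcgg
Pvalb, chr15:78195275-78195475: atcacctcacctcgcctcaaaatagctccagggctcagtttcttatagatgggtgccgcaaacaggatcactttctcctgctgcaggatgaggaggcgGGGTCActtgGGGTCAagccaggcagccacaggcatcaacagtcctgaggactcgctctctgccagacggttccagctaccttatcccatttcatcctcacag
Satb1, chr17:51763628-51763828: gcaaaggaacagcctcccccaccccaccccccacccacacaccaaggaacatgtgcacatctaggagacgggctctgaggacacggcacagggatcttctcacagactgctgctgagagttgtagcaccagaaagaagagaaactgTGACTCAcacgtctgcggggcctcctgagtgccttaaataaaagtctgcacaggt
Sox6, chr7:116033140-116033340: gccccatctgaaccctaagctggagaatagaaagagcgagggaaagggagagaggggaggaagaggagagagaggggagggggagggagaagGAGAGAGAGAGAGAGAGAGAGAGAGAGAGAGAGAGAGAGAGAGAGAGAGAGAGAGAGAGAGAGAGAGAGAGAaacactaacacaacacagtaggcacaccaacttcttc

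As a group, the 9 genes were not rich in TRBS. The share with at least 1 site was 44.4% (4 of 9), beside 57.7% of all protein-coding genes. None of the 9 genes had a TRBS within 1 kb of its 5′ end, where 23.2% of all protein-coding genes have one. A strong site, with a score of at least 200, was present at Satb1 and Nos1 (2 of 9 genes), beside 30.6% of all protein-coding genes. The median number of sites was 0 for the 9 genes and 1 for all protein-coding genes, although the median length of the 9 genes was larger (24.9 kb against 17.4 kb). The windows of the 9 genes covered 1294 kb and held 0.464 TRBS per 100 kb, with an exact Poisson 95% interval from 0.170 to 1.010 that covers counting error only. All protein-coding windows together held 1.54 and the whole genome 0.880 TRBS per 100 kb. Protein-coding windows overlap, and the value of 1.54 counts a site once for each window that holds it, unlike the other values. The long Sox6 window, 598 kb with 1 site, makes up a large part of the total. Taken gene by gene, the density was 1.67 per 100 kb at Pvalb, 1.44 at Nos1, 0.787 at Satb1 and 0.167 at Sox6.

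**Figure D1:**
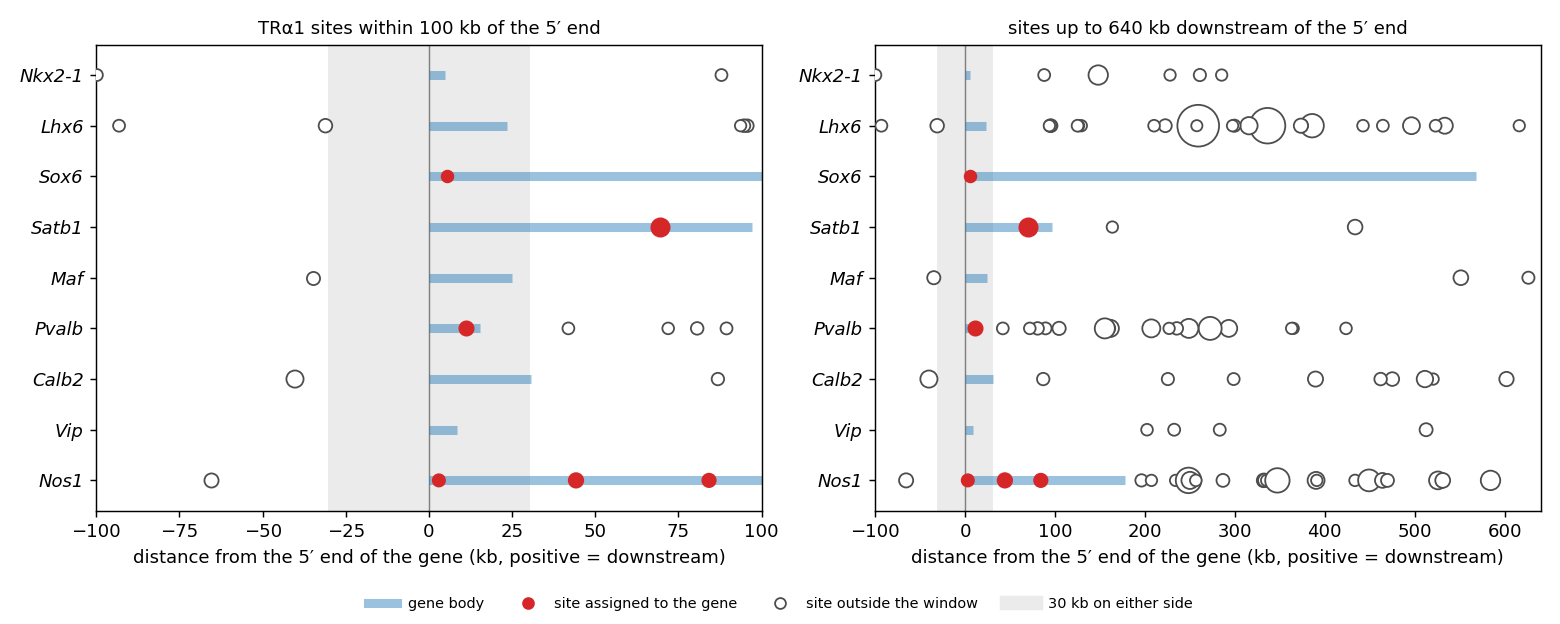
Position of TRBS around the 9 genes, in kb from the 5′ end of each gene along its own strand, in a range of 100 kb on either side (left) and over a longer stretch downstream (right); blue bars are gene bodies, red points are sites given to the gene, open circles are sites outside its window, and the area of a point increases with fold enrichment. All 6 red points lie downstream of the 5′ end, and the nearest open circles of Lhx6, Maf and Calb2 lie just beyond the grey band of 30 kb.

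All 6 sites lay downstream of the 5′ end of their gene, in an intron. The rule itself takes summits inside gene bodies, so this position is a description. The 5′ end is the outermost annotated start of the gene. The 3 Nos1 sites and the Sox6 site lie upstream of the transcript with the longest coding sequence. With a distance of 50 kb, 70% of the sites given to the 9 genes were in introns. No other annotated gene overlapped any of the 6 summits, and the protein-coding gene with the nearest 5′ end was the same gene in every case. The distance from the 5′ end ranged from 2986 bp at the first Nos1 site to 84197 bp at the last.

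Nos1 makes nitric oxide in a class of striatal interneurons that also contain somatostatin and neuropeptide Y. The gene (ENSMUSG00000029361.18, plus strand) spans chr5:117781032-117958840. The first site (chr5:117783890-117784251) lies 2986 bp downstream of the 5′ end. Its summit was covered by 19 fragments (the pileup), which is a 6.79-fold enrichment over a local background of 1.95 fragments, with 1 added to each. The middle site (chr5:117825045-117825377) lies 44.2 kb downstream, where 27 fragments gave a 10.4-fold enrichment. The last site (chr5:117865034-117865636) lies 84.2 kb downstream, where 22 fragments gave an 8.55-fold enrichment. The middle site is therefore the highest of the 3, and it is also the one with DR4. The 3 summits are spaced almost evenly, by 41.2 and 40 kb. All 3 lie upstream of the transcript with the longest coding sequence, which starts at position 117867114, and the last site lies only 1885 bp before this start. They are inside intron 1 of other Nos1 transcripts. No site was found in the remaining part of the gene, which holds the coding exons of that transcript.

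Pvalb encodes the calcium buffer of fast-spiking interneurons. The gene (ENSMUSG00000005716.16, minus strand) spans chr15:78191114-78206400. Its only site (chr15:78195173-78195724) lies 11025 bp downstream of the 5′ end, in intron 4 of 4. The 5′ end of Ift27 is 21.3 kb from this summit, so the 30 kb rule gives the site to Ift27 as well. The summit was covered by 26 fragments, an enrichment of 10.04-fold over a background of 1.69, close to the middle Nos1 site. This background is the floor of the list, which 42.6% of TRBS share. The middle and last Nos1 sites and the Sox6 site have it too, so among these sites fold enrichment follows the pileup alone. Pvalb is the only one of the calcium buffers and peptides among the 9 genes with a site, since Calb2 and Vip have none.

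Satb1 is a genome organiser needed for the maturation of interneurons that contain somatostatin, and it is also expressed in T cells and other neurons. The gene (ENSMUSG00000023927.15, minus strand) spans chr17:51736187-51833290. Its site (chr17:51763253-51764052) was the strongest of the 6, with 52 fragments at the summit, an 18.0-fold enrichment over a background of 1.95. It lies 69.6 kb downstream of the 5′ end, in intron 9 of 11 of the transcript with the longest coding sequence. At 800 bp it was also the longest of the 6 sites. Among all TRBS, 89.3% had a lower fold enrichment.

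Sox6 acts downstream of Lhx6 in interneuron positioning and is also a factor of other cell lineages. The gene (ENSMUSG00000051910.13, minus strand) spans chr7:115470872-116038796 and is the longest of the 9, at 568 kb. Its only site (chr7:116033037-116033349) lies 5556 bp downstream of the 5′ end and 362 bp downstream of the start of another Sox6 transcript. It also lies 38154 bp upstream of the transcript with the longest coding sequence, in intron 1 of a longer one. It was the weakest of the 6, with 15 fragments at the summit, a 5.95-fold enrichment over a background of 1.69, and 23.8% of all TRBS had a lower value. Its score of 76 is the closest of the 6 to the authors' minimum of 60. The window of 201 bases holds an unbroken run of 72 bases of alternating G and A, and 68.7% of the window is masked as repeat. Such a run of at least 40 bases occurs in 61 of all TRBS (0.254%), and the median TRBS has 5.47% of its window masked. Whether the repeat had a part in the peak was not tested. Without this site, 3 of the 9 genes have a TRBS and 5 sites remain, with a median fold enrichment of 10.04. The gene 1110004F10Rik begins 0.6 kb from the 5′ end of Sox6, so the site is 6157 bp from that gene as well.

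The 6 sites were of ordinary strength for this list. Their median fold enrichment was 9.30, with a range from 5.95 to 18.0, and the median of all TRBS was 7.40, with quartiles of 5.95 and 11.2. TRBS that are not within 1 kb of the 5′ end of a gene, as all 6 are, had a median of 7.21. The Sox6 site is within 1 kb of the start of another transcript of its gene. The median pileup was 24 fragments beside 21 for all TRBS, the median length 457 bp beside 422 bp, and the median GC content 52.0% beside 49.6%. The deposited −log10 q values at the 6 summits ran from 7.60 at Sox6 to 51.5 at Satb1.

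**Figure D2:**
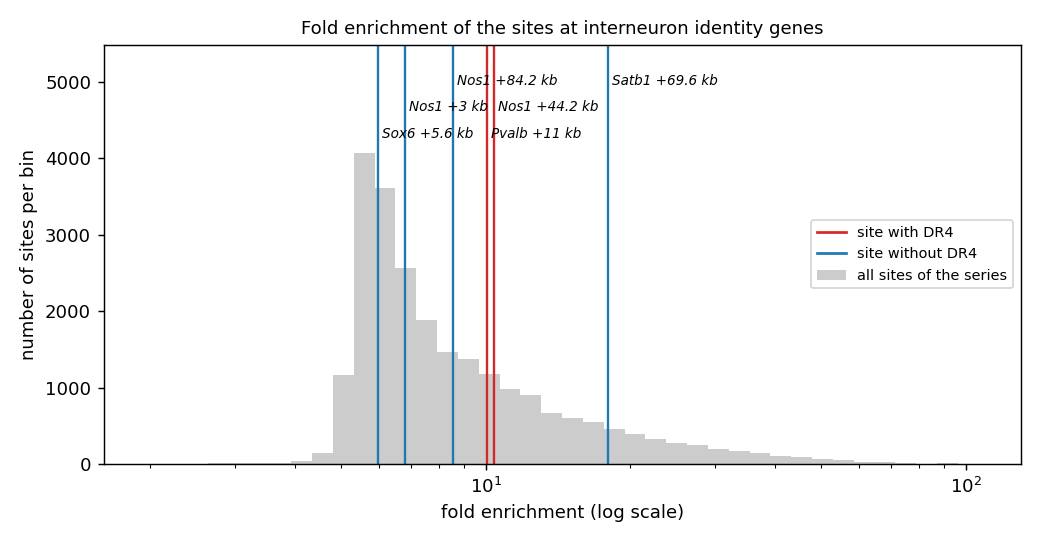
Distribution of fold enrichment over all TRBS (grey, number of sites per bin, log scale on the x axis) with the 6 sites at interneuron genes as vertical lines, red for sites with DR4 and blue for sites without; labels give the gene and the distance from its 5′ end. The lines run from 5.95 at Sox6 to 18.0 at Satb1, and the red lines, for Pvalb and the middle Nos1 site, fall together at 10.04 and 10.4.

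DR4 was present in 2 of the 6 sites. Allowing up to 2 of the 12 half-site bases to differ, this is 33.3% (Wilson 95% interval 9.68 to 70.0), beside 17.3% of all TRBS and 19.2% of TRBS not within 1 kb of a 5′ end. In windows of equal width placed 5 kb to the right, a match occurred in 0 of 6 cases, and in 5.90% of cases for all TRBS. The interval contains both shares of TRBS, 17.3% and 19.2%, so a difference from other TRBS was not detectable with 6 sites. The matches are shown next with the half-sites in capitals, each on its own strand. Differences from a perfect pair of half-sites are counted from 1 at the 5′ end of the element, with the base of the perfect pair first.
Nos1, middle site, chr5:117825259-117825274, minus strand: AGGTCAggtcAGGCCA
Nos1, middle site, chr5:117825254-117825269, minus strand: AGGTCAggccAGGCCT
Pvalb, chr15:78195373-78195388, plus strand: GGGTCActtgGGGTCA

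In the middle Nos1 site, the first element differs by T14C and the second by T14C and A16T. They overlap, and they share bases because the half-site recurs every 5 bases over this stretch, so they are not separate observations. At least 2 matches occur in 1.88% of all TRBS. The centres of the elements lie 28.5 and 23.5 bp from the summit. In Pvalb, the differences are A1G and A11G, so that both half-sites read GGGTCA, and the centre lies 5.5 bp from the summit. Over all TRBS with a match, the median distance was 39.5 bp and 40.02% lay within 30 bp. The DR4 of both genes thus lies closer to the summit than that of the median TRBS, which is a description of 2 sites. With at most 1 mismatch only the Nos1 element remained (1 of 6 sites, beside 3.86% of all TRBS). With at most 3 mismatches, the first Nos1 site and Satb1 were added (4 of 6, beside 52.9%), a level at which most sites match. The closest match was 4 mismatches away in the last Nos1 site and 5 in Sox6. Satb1, the strongest site, has no DR4 with at most 2 mismatches.

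Sequences of other factors were searched in the same 201 bases on both strands without mismatches. The single half-site AGGTCA, which is also counted when it is part of a DR4, was present in 1 of 6 sites (the middle Nos1 site), beside 17.8% of all TRBS. Outside these 201 bases, the Satb1 site of 800 bp also holds 1 AGGTCA. The AP-1 motif TGANTCA was present in 2 of 6 (the last Nos1 site and Satb1), beside 11.5%. The 2 sites with AP-1 are not the 2 with DR4. The homeodomain core TAATTA, which LIM-homeodomain and other homeodomain factors bind, was present only in the middle Nos1 site, beside 4.62% of all TRBS. The core CAAGTG, bound by Nkx2-1, was present in the first Nos1 site and in Pvalb, where it overlaps the DR4, beside 11.3%. The Sox core ACAAT was in 0 of 6 sites, beside 21.6%. The GC box GGGCGG was found in 1 site, beside 18.2%, and the box CACCC in 3 sites, beside 49.2%. The E-box CAGCTG was found in 1 site, beside 12.8%, and the CRE TGACGTCA in 0, beside 0.542%. With 6 sites, none of these counts can be set apart from the share over all TRBS, and a match does not show that a factor was bound.

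The windows of the 9 genes contain many DR4 matches that carry no TRBS. A total of 148 matches with at most 2 mismatches were found, of which 3 lie in a TRBS. This is 2.03% (Wilson 95% interval 0.692 to 5.79), beside 2.39% of the matches in all protein-coding windows and 1.84% in the whole genome. The interval treats the matches as independent, although 2 of the 3 overlap each other at Nos1. Sox6 has the most matches (59) and none of them is in a site. Nos1 has 33 with 2 in a site, Satb1 19 with 0, Pvalb 12 with 1, Lhx6 and Nkx2-1 7 each with 0, Calb2 5, Maf 4 and Vip 2, each with 0. With at most 1 mismatch there were 13 elements, of which 1 lies in a TRBS (7.69%, interval 1.37 to 33.3, beside 6.00% in all protein-coding windows). No perfect DR4 lies in any of the 9 windows. All protein-coding windows together hold 724, beside 166204 matches with at most 2 mismatches. Perfect elements are so rare that their absence among 148 matches is unremarkable. The 12 elements with 1 mismatch that carry no TRBS are shown because they match DR4 as well as, or better than, the elements that do.
Nos1, 3.4 kb upstream, chr5:117777663-117777678, minus strand: AGGTCTtacaAGGTCA
Nos1, 35.4 kb downstream, chr5:117816397-117816412, minus strand: AGGTCAgcgtAGGTTA
Nos1, 71.3 kb downstream, chr5:117852314-117852329, minus strand: AGGTCAtgccAGGTCC
Pvalb, 13.5 kb downstream, chr15:78192925-78192940, minus strand: AGGTTAagggAGGTCA
Pvalb, 6.7 kb upstream, chr15:78213083-78213098, plus strand: AGGTCCtgggAGGTCA
Calb2, 24.8 kb upstream, chr8:110193032-110193047, minus strand: AGGTCAaacgAGATCA
Satb1, 30 kb downstream, chr17:51803288-51803303, plus strand: AGGTCAccagTGGTCA
Satb1, 81.8 kb downstream, chr17:51751517-51751532, minus strand: AGGTCTctagAGGTCA
Sox6, 57.7 kb downstream, chr7:115981084-115981099, plus strand: AGGTCAcagcAGGTGA
Sox6, 240.1 kb downstream, chr7:115798722-115798737, plus strand: AGGTCAgttcAGGTCC
Sox6, 259 kb downstream, chr7:115779773-115779788, minus strand: AGGACAgcatAGGTCA
Sox6, 340.5 kb downstream, chr7:115698298-115698313, minus strand: AGGCCAgaagAGGTCA

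At Pvalb, neither element with 1 mismatch lies in a TRBS, and the element that does has 2 mismatches, like the other Pvalb matches that lie in none.

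**Figure D3:**
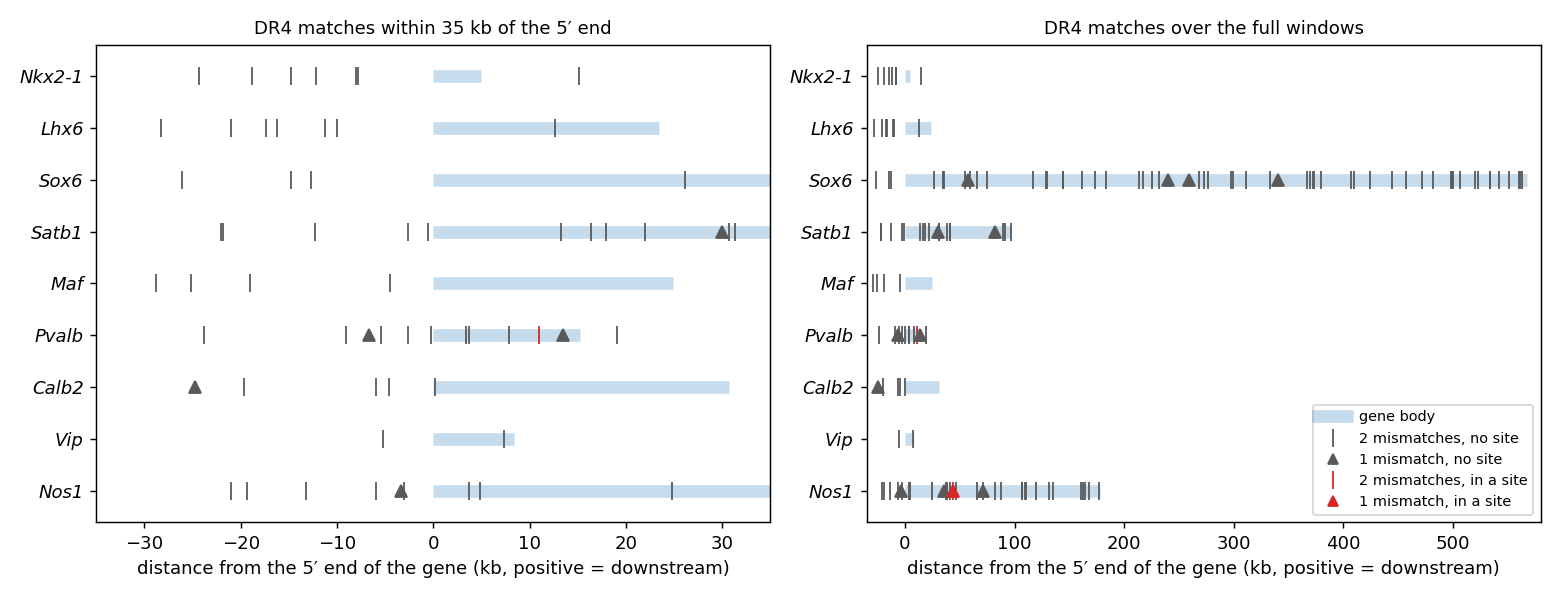
DR4 matches around the 9 genes, in kb from the 5′ end of each gene along its own strand, within 35 kb (left) and over the full windows (right); triangles have 1 mismatch, ticks 2, and red marks lie in a TRBS. Of 148 matches, 3 are red: 2 overlapping at Nos1 and 1 at Pvalb.

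Among the promoters that RefSeq gives for GRCm38, from 250 bases before to 50 bases after each start, 7 of the 9 genes were matched, with 19 promoters in all. A DR4 with at most 2 mismatches was found in 1 of them, that of Pvalb (chr15:78206351-78206650), where AGGTCCaagcAGGGCA lies on the strand opposite to the gene, beside 3.02% of 32851 promoters. No TRBS covers this promoter. An AGGTCA half-site was found in 4 of the 19, beside 16.3% of all promoters. Promoters of 1 gene overlap each other, so the 19 are not independent.

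The number of TRBS at a gene goes with its length. The share of protein-coding genes with a TRBS rose from 40.5% in the shortest 10% of genes to 81.7% in the longest. The window widens with gene length only above 30 kb. Below that length windows are equal, but the share still differed between classes of length. It was 40.5% in the class with a median length of 1.4 kb and 58.5% in that with 14.5 kb. The reason for this difference was not tested. Each of the 9 genes was therefore set beside all protein-coding genes whose length was within a factor of 1.5. Nos1 (178 kb) had 3 sites, where the median of genes of like length was 2, and 73.6% of those genes had as many or fewer. Pvalb had 1 site, the median of its like, and 70.3% had as many or fewer. Satb1 (97.1 kb) also had the median number, 1, and 54.6% had as many or fewer. Of the genes with a site, only Sox6 was below the median of its like. It had 1 site where the median of 300 genes of like length was 4, and 20.7% had as many or fewer. For genes without a site, an absence was common at the same length: 43.1% of genes like Lhx6, 43.1% like Maf, 42.9% like Calb2, 48.1% like Vip and 52.8% like Nkx2-1 had none.

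**Figure D4:**
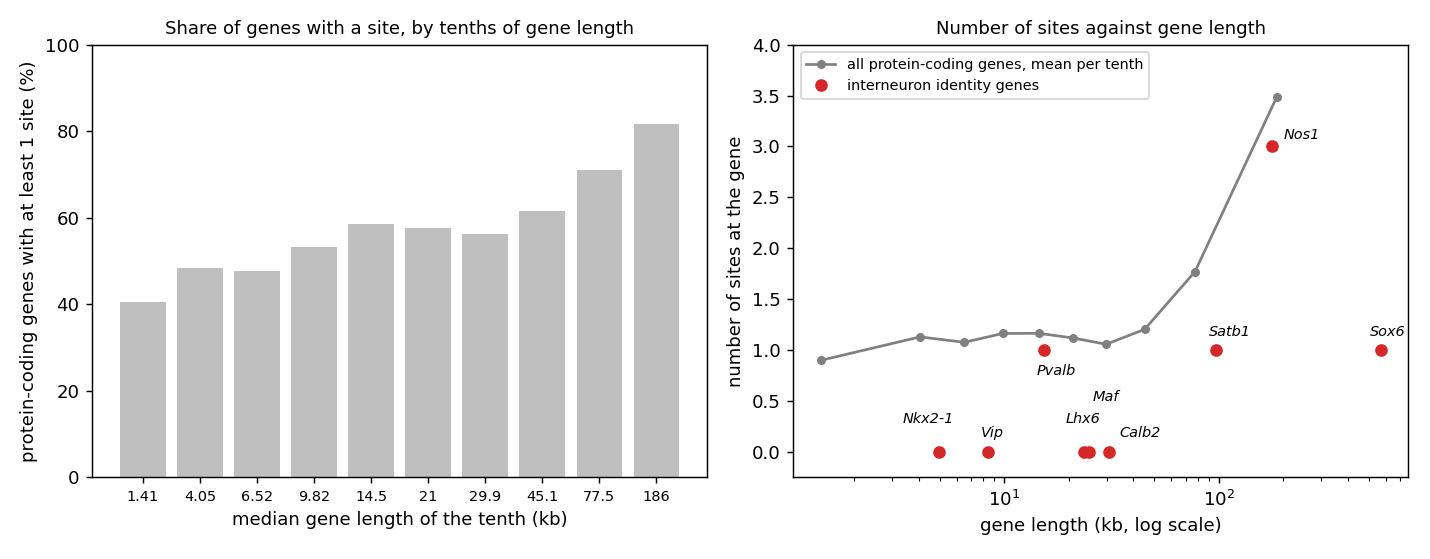
Left, share of protein-coding genes with at least 1 TRBS in 10 classes of gene length with about as many genes each (bars, in percent, from 40.5 to 81.7), with the median length of the class in kb. Right, number of TRBS against gene length in kb (log scale) for the 9 genes (red) and the mean of each class (grey). Sox6 has 1 site although it is longer than the median of every class.

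The 5 genes without a TRBS differ in how far away the nearest one lies. Lhx6 (chr2:36081953-36105408) just missed the limit of 30 kb. A site with an 8.93-fold enrichment and a DR4 lies 31.1 kb upstream of it, in an exon and 137 bp from the 5′ end of Mrrf, which encodes a mitochondrial ribosome recycling factor. Maf (chr8:115682942-115707794) has an intergenic site with an 8.18-fold enrichment 34.9 kb upstream, without DR4, and Maf is the nearest protein-coding gene. Calb2 (chr8:110137502-110168210) has a 15.6-fold enriched site with DR4 at chr8:110208110-110208844, 40.3 kb upstream, but this site is 7177 bp from the 5′ end of Cmtr2, an mRNA cap methyltransferase. The nearest site of Nkx2-1 (chr12:56531958-56536908) lies 87.9 kb downstream, with a 6.32-fold enrichment and no DR4. Vip (chr10:5639218-5647617) is the most isolated, since its nearest site lies 170.4 kb upstream, in an intron of Syne1, with a 32.6-fold enrichment. Within 100 kb of the 5′ end, 8 of the 9 genes had a TRBS, all but Vip, beside 77.8% of all protein-coding genes. On the inner side of the limit, the farthest site given by distance alone is that of Pvalb at 11 kb.

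Each site in the list carries a running number from the peak caller, in order of position on 21 of 21 chromosomes. The numbers reach 47234, and 23246 of them (49.2%) are absent. If the absent numbers are the calls that the authors removed by their minimum score, which the list itself does not say, they show where weaker calls lay. Between the sites on either side of Calb2, 127.1 kb apart, no number is absent. Around Nkx2-1 1 number is absent over 187.8 kb, around Lhx6 2 over 124.8 kb, around Maf 2 over 586.3 kb and around Vip 5 over 372.7 kb. Along Sox6, 12 numbers are absent in the 717.8 kb that separate its site from the next one on the 3′ side. The positions of removed calls are unknown, so none can be given to a gene.

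Other gene lists were counted by the same rule, to show where the 9 genes stand. Among 18 other interneuron transcription factors, 9 had a TRBS, with a median of 0.5 sites. The most were 3 each at Dlx2, Dlx5 and Dlx6, homeobox genes that drive GABAergic fate, and Dlx5 and Dlx6 are neighbours with overlapping windows. Among 19 other peptides, enzymes, channels and receptors of interneurons, 7 had a TRBS and the median was 0. Kcnc1, a potassium channel of fast-spiking cells, had 7 sites, Syt2, a synaptotagmin, had 5 and the extracellular protein gene Reln had 4, while Sst and Npy, the peptides of the Nos1 class, had 0. The interneuron lists are thus near the 9 genes, with 44.4%, 50.0% and 36.8% of genes with a site.

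Genes of GABA synthesis, breakdown and transport, and those of projection neurons, held more sites. All 5 genes of the list of GABA synthesis and transport had a TRBS (median 5 sites). The most were 8 at the glutamate decarboxylase Gad1 and 6 at the GABA transaminase Abat, which breaks GABA down. Of 12 projection neuron transcription factors, 11 had a TRBS (median 3.5), with 25 sites at Foxp1, 18 at Bcl11b and 9 at Meis2. At the low end, Ikzf1 had 0, and Ebf1 and Six3 had 1 each. Of 12 projection neuron effectors, 10 had a TRBS (median 4), with 29 sites at the phosphodiesterase gene Pde10a, 21 at the adenylyl cyclase gene Adcy5 and 21 at the G protein subunit gene Gng7. Adora2a and Pdyn had 0, and Penk and Tac1 had 1 each. Within 1 kb of the 5′ end, sites were found at 4 of 5, 6 of 12 and 4 of 12 genes of these lists, and at 0 of the 9 interneuron genes. In the other interneuron lists, such sites were found at 2 of 18 transcription factors and 2 of 19 other genes. The highest fold enrichment in the GABA and projection neuron lists was 96.3 at Pde10a, beside 18.0 for the 9 genes. These lists held 25, 79 and 102 distinct sites, beside 6, and a maximum tends to rise with the number of sites. Their median fold enrichments were 8.16, 8.18 and 8.18, beside 9.30 for the 9 genes. The transcription factor genes of projection neurons are long (median 90.6 kb), but their effector genes, with a median of 15.6 kb, are shorter than the 9 genes.

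Genes of cells that the labels do not give as carriers of the tag were counted as well. Of 12 identity genes of cortical excitatory neurons, 5 had a TRBS (median 0), with 7 sites at Neurod2 and 1 each at Eomes and Lhx2. Neurod2 and the projection neuron effector Ppp1r1b lie on the same chromosome and have the same highest fold enrichment, 42.4. Some sites may therefore be counted for both. Of 12 genes of glia, microglia and endothelium, 4 had a TRBS (median 0), with 11 sites at the myelin gene Mbp, 3 at Cx3cr1 and 2 at Mog. These counts are read against 57.7% of all protein-coding genes. Within 1 kb of the 5′ end, sites were found at 0 of the 12 cortical genes. In the list of glia, microglia and endothelium, 1 of 12 genes had such a site, beside 23.2% of all protein-coding genes. The lists were chosen by function, with earlier results of these data known. They differ in length and size, and the differences between them were not tested.

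**Figure D5:**
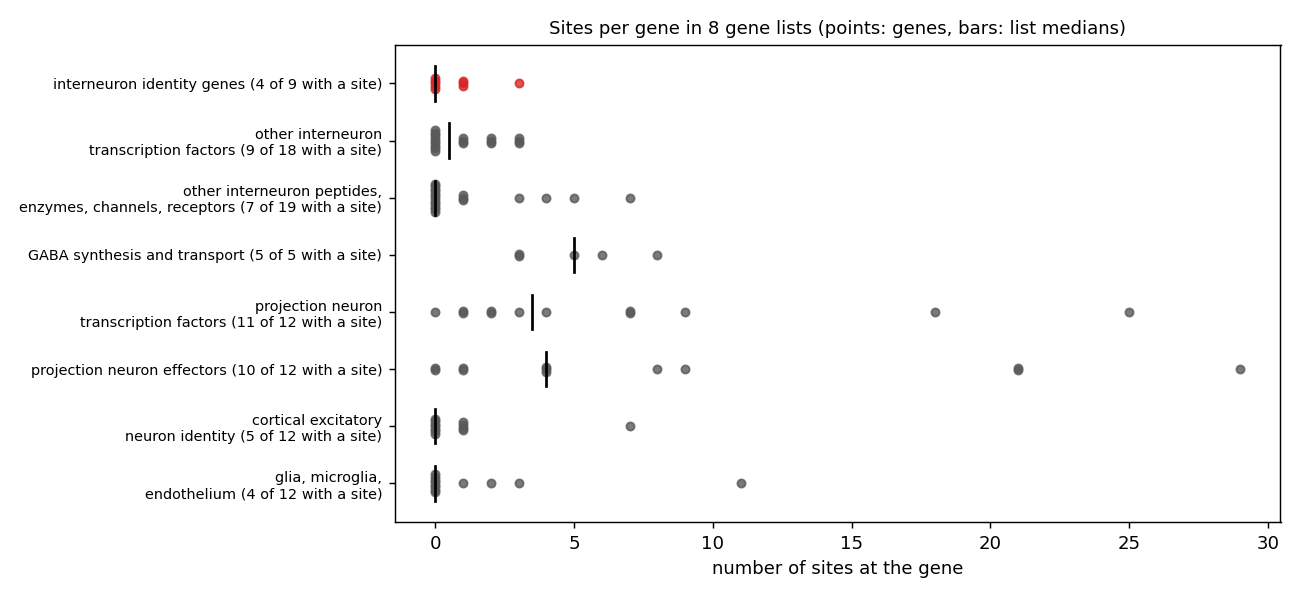
Number of TRBS per gene in 8 gene lists (points are genes, black bars are list medians), with the 9 interneuron genes in red. The red points lie between 0 and 3, and the longest row is that of the projection neuron effectors, up to 29 sites at Pde10a.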

How the data were processed

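Striatal TRα1 ChIP-seq of 2 ChIP libraries and 1 input library, grouped from the sample titles, had been aligned and peak-called by the authors. The submitters' processing notes name Bowtie2 2.3.2.2, MACS2 2.1.1.20160309.0 and mm10. The authors kept peaks with a score of at least 60. Pooling of the ChIP libraries and the treatment of duplicate reads are not given in the sources used here. In the deposited list, pileup is the coverage (signal) by fragments at the summit, the fold enrichment is the authors' ratio of pileup to local background, and the deposited −log10 q and score come from MACS2. These served only to describe and rank sites within 1 list.

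Sites were assigned by summit to GENCODE genes of GRCm38 with Python 3.11.15 and pandas 2.3.3. DR4 was searched on both strands with at most 2 mismatches in 12 half-site bases. Intervals for shares are Wilson 95% intervals and cover counting error only. Assignment and search were tested on simulated data and recovered 400 of 400 planted sites and 300 of 300 planted DR4. Genes named were the 9 genes, the nearest protein-coding gene of each site, any protein-coding gene with its 5′ end within 1 kb of a site, and the 3 genes with most sites of each other list. The values of 1 gene that this rule names are not reported here. Genes next to sites outside the windows, 1110004F10Rik, Ift27, Sst and Npy were named after their values were seen. So were Ppp1r1b, Ikzf1, Ebf1, Six3, Adora2a, Pdyn, Penk and Tac1. The 9 genes and the lists were chosen with earlier results of these data known. Alternatives changed the distance, the gene body, the 5′ end, the score, the position of a site and the mismatches.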

Additional observations from a re-analysis of the deposited data

How the results depend on the processing

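Of 39 alternative values, 5 counts moved by more than 1.5 times. The other 34 were within this factor or, for medians and shares, within the range or the Wilson interval of the reported value, which is wide with 6 sites. The share with DR4, 33.3%, was 16.7% with at most 1 mismatch, 66.7% with at most 3, and 50% at 50 kb or a score of at least 200. The median fold enrichment, 9.30, was 6.79 with the distance alone and 14.2 with a score of at least 200, and the share in introns fell from 100% to 70% at 50 kb. With a distance of 50 kb, 7 of the 9 genes had a site and the sites numbered 10, since Calb2, Lhx6 and Maf gained 1 each and Pvalb gained 1. With a score of at least 200, 2 genes and 2 sites remained (Nos1 and Satb1). With the distance alone and no gene body, the sites numbered 3, at Nos1, Pvalb and Sox6, because the Satb1 site and the farther Nos1 sites lie beyond 30 kb. These changes follow from the construction of each setting. Leaving out the Sox6 site in the GA repeat was chosen after seeing the data, and it gave 3 genes and 5 sites. With 6 sites, intervals are wide. Sites below a score of 60 were not analysed here, and no count of genes says whether expression responds to T3. No paired analysis was possible because the peak list holds no values for single libraries, and for the same reason no library could be left out.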
